A study of Arabidopsis thaliana with 12 samples.

Results

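The 7 genes described here are a set of Arabidopsis thaliana loci whose transcripts are known to accumulate soon after touch or wounding. They are TCH2 (AT5G37770), TCH3 (AT2G41100), TCH4 (AT5G57560), WRKY40 (AT1G80840), WRKY33 (AT2G38470), ZAT10 (AT1G27730) and ZAT12 (AT5G59820). The members were chosen by locus, and they make up 7 of the 28775 loci counted in each library. All 7 passed the filter on low counts, as did 19733 of the 28775 loci. RNA sequencing had been done on root tips of seedlings carrying pRPS5A::DOF2.1-GR in the Col-0 background, in 4 groups of 3 biological repeats. The tested groups, DEX 1 h, DEX 2 h and DEX 4 h, were moved onto medium with 10 µM dexamethasone (DEX) for 1, 2 or 4 h, and the fourth, control 1 h, was a 1 h control without DEX. Seedlings of all 4 groups were 5 days old and grown at 22 °C, and every library came from 300 pooled root tips.

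In this line the transcription factor DOF2.1 is joined to GR, the steroid-binding part of the glucocorticoid receptor, and such fusions are known to enter the nucleus once DEX is bound. The RPS5A promoter is known to be active in dividing cells. All 4 groups carry the construct, the labels do not say whether the control seedlings were moved to fresh plates, and neither DEX-treated seedlings without the construct nor controls of 2 h or 4 h were analysed here. The effect of DOF2.1, that of DEX and that of the transfer therefore cannot be told apart. For the 2 h and 4 h groups the elapsed time is also part of every comparison with the control.

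Touch, bending and wounding are known to raise cytosolic calcium in plant cells within seconds. Calmodulin and calmodulin-like proteins bind that calcium, and calmodulin-binding transcription activators (CAMTA factors) and MAP kinase cascades are among the routes that lead from it to rapid transcription. The TCH genes were found as transcripts that accumulate after leaves are touched, and the WRKY and ZAT genes encode transcription factors that respond to many stresses, among them wounding, cold and oxidative stress. Harvesting and moving seedlings are themselves mechanical stimuli.

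The libraries held 14142082 to 17522834 counts. Levels are given as counts per 1000000 counts of the library (CPM), scaled with edgeR's TMM factors, and a gene was called higher or lower where edgeR's quasi-likelihood test gave a Benjamini-Hochberg adjusted p under 0.05 over the 19733 tested loci. The counts of the 7 genes lay between 105 (WRKY40 in DEX 4 h replicate 1) and 3256 (TCH3 in DEX 1 h replicate 2), far above the 3 counts taken as a detection floor. DEX 1 h replicates 1 and 3 stood furthest apart, with a chi-square of 19.5 per locus, where the other 11 pairs of repeats lay between 3.05 and 8.41. The 5 root meristem markers fixed for the check (PLT1, PLT2, WOX5, CYCB1;1 and SCR) were all tested, and their summed level was 97.6 to 104.7 CPM in DEX 1 h, 113 to 119 CPM in DEX 2 h, 98.4 to 113 CPM in DEX 4 h and 129 to 141 CPM in control 1 h. The 7 markers of differentiated root cells summed to 372 to 399.6 CPM, 285 to 339 CPM and 329 to 356 CPM at DEX 1, 2 and 4 h, against 356 to 428 CPM in control 1 h. The 5 root cap markers summed to 52.1 to 61.7 CPM, 49.1 to 58.6 CPM and 68.1 to 72.2 CPM, against 71.3 to 80.5 CPM. Against the control, 3 meristem markers were called lower at each time, and 1 was called higher at 2 h and at 4 h. Their log2 fold changes ran from -2.27 to 0.43 at 4 h, so the sum hides opposite changes. Of the root cap markers 3, 5 and 2 were called lower at 1, 2 and 4 h, and of the differentiated markers 3 at 2 h and 3 at 4 h. Calls covered 9.62%, 35% and 50.3% of all tested loci at these times. Of 4 shoot markers 1 passed the filter, and their sum was at most 4.15 CPM in any library. RBCS1A made up most of that sum. LHCB2.2 and GL1 had at most 1 count in a library and LHCB1.1 at most 4, beside the floor of 3 counts. None of these markers was at 0 in all 12 libraries, and the part of these marker levels in the results below was not tested. In bulk root tips, fewer cells of a type and less RNA per cell cannot be told apart.

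The promoters of 3 of the 7 genes held one of the stress motifs searched, and they are shown because the motifs are known from touch and wound responses. The motifs were CGCGTT, which CAMTA factors are known to bind, the W boxes TTGACC and TTGACT, which WRKY factors are known to bind, and the G box CACGTG, each on both strands of the 250 bases before the annotated start. The sequences are from the RefSeq copy of build TAIR10.1, as are all gene positions given here, written 5′ to 3′ on the strand of the gene, with motif bases in capitals. They lie at chr5:14999620-14999869 on the minus strand (TCH2), chr5:23308681-23308930 on the minus strand (TCH4) and chr2:16107985-16108234 on the plus strand (WRKY33).
TCH2: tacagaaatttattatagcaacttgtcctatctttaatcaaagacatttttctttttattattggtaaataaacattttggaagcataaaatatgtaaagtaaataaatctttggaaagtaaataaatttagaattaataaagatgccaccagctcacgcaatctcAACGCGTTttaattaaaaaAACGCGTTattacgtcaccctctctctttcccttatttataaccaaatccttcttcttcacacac
TCH4: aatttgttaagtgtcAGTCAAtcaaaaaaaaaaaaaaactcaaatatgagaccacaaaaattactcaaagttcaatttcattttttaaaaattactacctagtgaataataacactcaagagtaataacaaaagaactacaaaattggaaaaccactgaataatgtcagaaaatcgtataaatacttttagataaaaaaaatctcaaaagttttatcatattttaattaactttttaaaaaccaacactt
WRKY33: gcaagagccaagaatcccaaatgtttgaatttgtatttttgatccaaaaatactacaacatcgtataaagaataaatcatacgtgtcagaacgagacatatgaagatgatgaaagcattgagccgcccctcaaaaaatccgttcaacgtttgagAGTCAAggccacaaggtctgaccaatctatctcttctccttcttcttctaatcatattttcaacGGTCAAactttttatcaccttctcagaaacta

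The TCH2 window held 4 matches to CGCGTT, because each of 2 runs of AACGCGTT reads the same on both strands and so counts once on each. Those matches began 84 and 82, and 65 and 63, bases before the start. CGCGTT was found in 2.59% of 27443 promoters of the same length. WRKY33 held TTGACC 32 bases and TTGACT 96 bases before its start, and TCH4 held TTGACT 235 bases before its start, all on the opposite strand, where they read GGTCAA and AGTCAA in the lines above. One or other W box was found in 28.4% of promoters (TTGACC in 12.2% and TTGACT in 19.1%). The windows of TCH3, WRKY40, ZAT10 and ZAT12 held none of these motifs, nor CACGTG, which 6.49% of promoters held. The TCH3 window lies wholly within exons of another annotated gene. AAAG, the core known to be bound by DOF factors, occurred in the windows of all 7 genes, as it did in 98.0% of promoters, with 1 match in TCH3, 3 each in WRKY40 and WRKY33, 5 each in TCH4, ZAT10 and ZAT12, and 8 in TCH2, where the median promoter held 4.

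TCH2 and TCH3 encode calmodulin-like calcium sensors (CML24 and CML12), and in these root tips they took opposite courses. TCH2 was modestly higher at every DEX time. It lies on chromosome 5 (14997514 to 14999619, minus strand). TCH2 stood at 50.03, 49.0 and 50.2 CPM in DEX 1 h, at 52.4, 44.9 and 49.6 CPM in DEX 2 h and at 45.3, 51.3 and 44.6 CPM in DEX 4 h, against 41.4, 38.1 and 40.3 CPM in control 1 h. All 9 DEX libraries lay above all 3 control libraries. The log2 fold change against the control was 0.32 at 1 h (SE 0.075, edgeR adjusted p = 0.0121), 0.29 at 2 h (SE 0.075, edgeR adjusted p = 0.00669) and 0.24 at 4 h (SE 0.076, edgeR adjusted p = 0.0150). The 3 DEX groups overlapped and no later time was called against an earlier one. The 1 h call was lost without control replicate 2 (edgeR adjusted p = 0.0675), and the 4 h call without DEX 4 h replicate 2 (0.0873), without control replicate 2 (0.0693) or with library totals in place of TMM factors (0.0656).

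TCH3 had the largest change of the 7 genes, and it was a fall. It lies on chromosome 2 (17137037 to 17139700, plus strand). TCH3 was at 160.1, 179 and 158 CPM in DEX 1 h, at 106, 99.8 and 94.8 CPM in DEX 2 h and at 23.6, 38.8 and 37.2 CPM in DEX 4 h, against 150, 166 and 119 CPM in control 1 h. The DEX 1 h libraries overlapped the control, the DEX 2 h libraries lay just below it, and the DEX 4 h libraries lay far below both. At 1 h the log2 fold change was 0.19 (95% interval -0.15 to 0.53) and was not called (edgeR adjusted p = 0.521). At 2 h TCH3 fell by 0.54 on the log2 scale (SE 0.16, edgeR adjusted p = 0.0209). At 4 h it fell by 2.12 (SE 0.17, 95% interval -2.49 to -1.75, edgeR adjusted p = 2.29e-06), which is 4.36-fold lower than in the control. The 2 h call was lost without DEX 2 h replicate 2 (0.0619) or 3 (0.0717), and without control replicate 1 (0.0619) or 2 (0.0790). The 4 h call was kept under every alternative tried, with a log2 fold change between -2.25 and -1.93.

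TCH3 also fell step by step within the DEX series. Its log2 fold change was -0.73 for DEX 2 h against DEX 1 h (SE 0.16, edgeR adjusted p = 0.00515), -1.59 for DEX 4 h against DEX 2 h (SE 0.17, edgeR adjusted p = 0.000425) and -2.32 for DEX 4 h against DEX 1 h (SE 0.17, edgeR adjusted p = 1.79e-06). No library of a later DEX group reached the lowest library of an earlier one. The reads of TCH3 could include those of AT2G09220 and AT2G41105, which overlap it on the opposite strand and were not analysed here, and whether the counting used strand is not given in the sources used here. TCH2 overlaps AT5G37760 on the opposite strand, which had at most 4 counts in a library.

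TCH4 encodes a xyloglucan endotransglucosylase/hydrolase (XTH22), an enzyme known to cut and rejoin xyloglucan in the cell wall. It lies on chromosome 5 (23307006 to 23308680, minus strand) and overlaps no other annotated gene. TCH4 was at 29.5, 44.3 and 42.0 CPM in DEX 1 h, at 41.5, 35.1 and 50.6 CPM in DEX 2 h and at 27.1, 39.3 and 39.4 CPM in DEX 4 h, against 14.5, 18.6 and 28.1 CPM in control 1 h. All DEX 1 h and DEX 2 h libraries lay above the control, and DEX 4 h replicate 1 lay just under the highest control library. The log2 fold change was 0.92 at 1 h (SE 0.27, 95% interval 0.31 to 1.53) and was not called (edgeR adjusted p = 0.0670). TCH4 rose 2.08-fold at 2 h (log2 1.06, SE 0.27, edgeR adjusted p = 0.0149) and 1.74-fold at 4 h (log2 0.80, SE 0.27, edgeR adjusted p = 0.0366).

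These TCH4 results depended on single libraries. Without control replicate 3, the highest control library, the 1 h value was 1.22 and was called (edgeR adjusted p = 0.0197), as it was with DESeq2 (0.0156). The 2 h call was lost without DEX 2 h replicate 3 (0.0519) or control replicate 2 (0.0557). The 4 h call was lost without DEX 4 h replicate 2 (0.0971) or 3 (0.0989), without control replicate 1 (0.103) or 2 (0.104), without the filter on low counts (0.0572) and in a fit of those 2 groups alone (0.0778). No DEX group was called against another in TCH4.

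**Figure D1:**
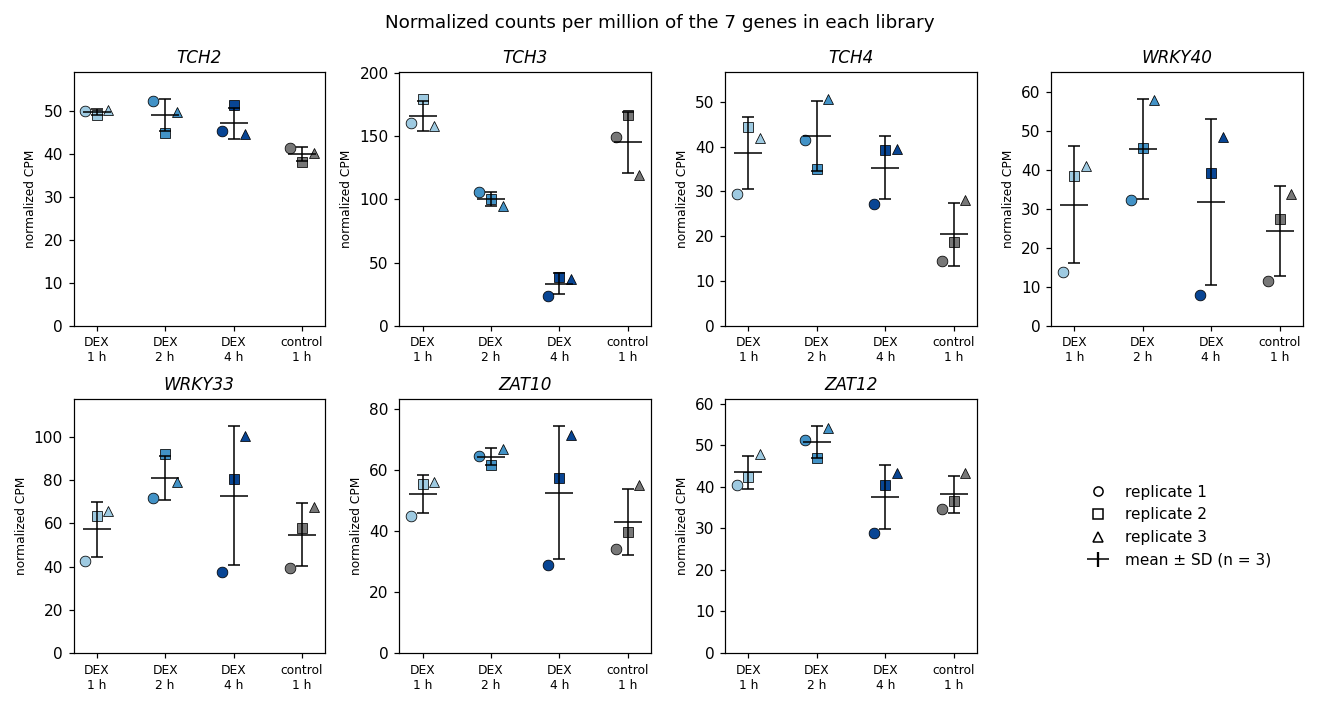
Normalized CPM (vertical axes, starting at 0) of each of the 7 genes in the 12 libraries, grouped on the horizontal axis as DEX 1 h, DEX 2 h, DEX 4 h and control 1 h. Marker shapes give the replicate number and bars the mean ± SD (n = 3). TCH3 falls to 23.6 to 38.8 CPM in DEX 4 h, against 119 to 166 CPM in control 1 h, while the WRKY and ZAT genes spread widely within groups, with replicate 1 mostly at the bottom.

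WRKY40 and WRKY33 encode WRKY transcription factors of defence and wound responses; WRKY40 is known mainly as a repressor that acts with WRKY18 and WRKY60, and WRKY33 as a regulator of camalexin synthesis and resistance to fungi. Neither was called at any time in the fit with group as the only term, and their repeats differed widely. WRKY40 lies on chromosome 1 (30383561 to 30385499, plus strand). It was at 13.8, 38.2 and 40.9 CPM in DEX 1 h and at 32.3, 45.6 and 57.9 CPM in DEX 2 h. In DEX 4 h it was at 7.76, 39.0 and 48.2 CPM, against 11.6, 27.4 and 33.8 CPM in control 1 h. In each of the 4 groups replicate 1 was the lowest library and replicate 3 the highest, and the highest was 2.97, 1.79, 6.21 and 2.92 times the lowest in DEX 1 h, DEX 2 h, DEX 4 h and control 1 h. The log2 fold change was 0.35 at 1 h (95% interval -1.19 to 1.89, edgeR adjusted p = 0.820), 0.90 at 2 h (-0.63 to 2.43, edgeR adjusted p = 0.336) and 0.39 at 4 h (-1.16 to 1.95, edgeR adjusted p = 0.662). These intervals include changes of more than 1 log2 unit in either direction at 1 h and 4 h.

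WRKY33, on chromosome 2 (16108235 to 16110766, plus strand), was at 42.4, 63.5 and 65.8 CPM in DEX 1 h, at 71.9, 92.0 and 79.3 CPM in DEX 2 h and at 37.4, 80.6 and 100.3 CPM in DEX 4 h, against 39.2, 57.7 and 67.6 CPM in control 1 h. The 3 DEX 2 h libraries lay above all control and all DEX 1 h libraries, while DEX 1 h and DEX 4 h overlapped the control. The log2 fold change at 2 h was 0.57 (SE 0.35, 95% interval -0.25 to 1.38, edgeR adjusted p = 0.256). At 1 h it was 0.062 (edgeR adjusted p = 0.947) and at 4 h 0.41 (SE 0.36, edgeR adjusted p = 0.369). DEX 4 h replicate 1 held the lowest value of all 12 libraries, and without it the 4 h value was 0.72 and was called higher (edgeR adjusted p = 0.0465). On the opposite strand WRKY40 overlaps AT1G80850 (76 to 100 counts per library), and WRKY33 overlaps AT2G38480 (42 to 95 counts) and AT2G08965, which was not analysed here.

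ZAT10 and ZAT12 encode C2H2 zinc finger factors of the stress response; ZAT10 is known as a repressor induced by salt, cold and wounding, and ZAT12 for its part in the response to reactive oxygen. ZAT12 rose at 2 h and ZAT10 was not called at any time. ZAT10, on chromosome 1 (9648021 to 9649323, minus strand), was at 45.1, 55.4 and 56.2 CPM in DEX 1 h, at 64.8, 61.7 and 67.1 CPM in DEX 2 h and at 29.0, 57.5 and 71.7 CPM in DEX 4 h, against 34.3, 39.8 and 55.1 CPM in control 1 h. All DEX 2 h libraries lay above the control and above DEX 1 h, and DEX 4 h held both the lowest and the highest library of the 12. The log2 fold change was 0.28 at 1 h (SE 0.30, edgeR adjusted p = 0.652), 0.58 at 2 h (SE 0.29, 95% interval -0.087 to 1.25, edgeR adjusted p = 0.160) and 0.30 at 4 h (SE 0.30, edgeR adjusted p = 0.441). Without DEX 4 h replicate 1 the 4 h value was 0.58 and was called higher (edgeR adjusted p = 0.0182). In a fit of the 2 groups alone the 2 h value was called (0.59, edgeR adjusted p = 0.0400).

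ZAT12, on chromosome 5 (24102814 to 24103794, plus strand), was at 40.3, 42.3 and 47.9 CPM in DEX 1 h, at 51.4, 46.8 and 54.3 CPM in DEX 2 h and at 28.9, 40.5 and 43.3 CPM in DEX 4 h, against 34.8, 36.7 and 43.2 CPM in control 1 h. The DEX 2 h libraries lay above all control and all DEX 4 h libraries. ZAT12 rose 1.33-fold at 2 h (log2 0.41, SE 0.13, edgeR adjusted p = 0.0232). It was not called at 1 h (0.19, SE 0.13, edgeR adjusted p = 0.436) or at 4 h (-0.022, SE 0.13, edgeR adjusted p = 0.901). The 2 h call was lost without DEX 2 h replicate 1 (0.0603) or 3 (0.0843) and without control replicate 1 (0.0908) or 2 (0.0788). DEX 4 h against DEX 2 h gave -0.43 (SE 0.13, edgeR adjusted p = 0.0573), which was not called here but was with DESeq2 (0.0204) and without DEX 4 h replicate 3 (0.0482). Neither ZAT gene overlaps another annotated gene.

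**Figure D2:**
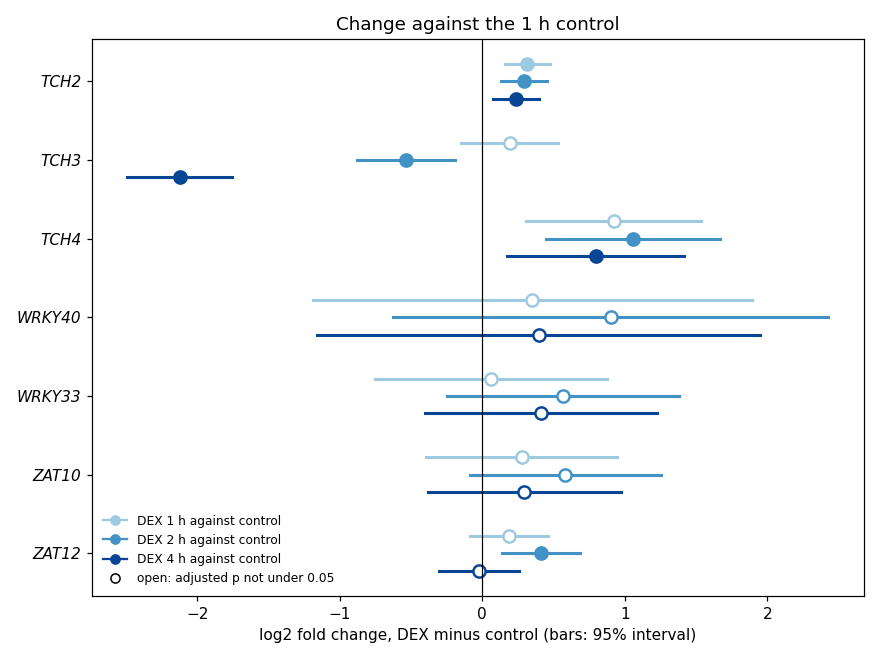
Log2 fold change of each of the 7 genes (vertical axis) against control 1 h, DEX minus control, at DEX 1, 2 and 4 h (horizontal axis), with 95% intervals; filled points have an edgeR adjusted p under 0.05. TCH3 at 4 h stands apart at -2.12, TCH2 has the narrowest intervals, and the intervals of WRKY40, WRKY33 and ZAT10 include 0 at every time.

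Against the control, 1 of the 7 genes was called at 1 h (TCH2, higher), 4 at 2 h (TCH2, TCH4 and ZAT12 higher, TCH3 lower) and 3 at 4 h (TCH2 and TCH4 higher, TCH3 lower). Over all 19733 tested loci, calls covered 9.62%, 35% and 50.3% at these times. With single libraries left out, the members called ranged from 0 to 2 at 1 h, from 1 to 4 at 2 h and from 1 to 5 at 4 h. Such counts out of 7 genes are too few to compare with these shares. A fit with a term for the replicate number called 6 of the 7 members for DEX 2 h, beside 7043 of the 19733 loci. It called 2 members for DEX 1 h and 3 for DEX 4 h. Whether these shares differ from the background was not tested. The median log2 fold change of the 7 genes was 0.28 at 1 h, 0.57 at 2 h and 0.30 at 4 h, against -0.0097, -0.0065 and 0.00031 over all tested loci. At 1 h all 7 values were above 0, at 2 h 6 and at 4 h 5. Of the 19733 tested loci 9451, 9726 and 9872 were above 0 at these times. The WRKY and ZAT genes varied together over the libraries, as given below, so these are not 7 separate results. The groups did not overlap for 2 of the 7 genes at 1 h (TCH2 and TCH4), for 6 at 2 h (all but WRKY40) and for 2 at 4 h (TCH2 and TCH3). Over all tested loci 26.4%, 51.7% and 59.2% did not overlap at these times. The 3 comparisons share the same 3 control libraries.

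Between DEX times, TCH3 was the only one of the 7 genes called, and in each case lower at the later time. Of all tested loci 31.3% were called for DEX 2 h against DEX 1 h, 7.34% for DEX 4 h against DEX 2 h and 48.6% for DEX 4 h against DEX 1 h. The groups did not overlap for 3 of the 7 genes in DEX 2 h against DEX 1 h (TCH3, WRKY33 and ZAT10), for 2 in DEX 4 h against DEX 2 h (TCH3 and ZAT12) and for TCH3 alone in DEX 4 h against DEX 1 h, where 44.1%, 32.2% and 54% of all tested loci did not overlap. All 7 log2 fold changes for DEX 4 h against DEX 2 h were below 0, with a median of -0.29, from -0.056 for TCH2 to -1.59 for TCH3. Of the 19733 tested loci 10103 were above 0 in this comparison. Without DEX 4 h replicate 1, the values of WRKY33 (0.16) and ZAT10 (0.00056) were also above 0. For 5 of the 7 genes the highest DEX mean was that of 2 h. TCH4 averaged 35.3 ± 7.06 CPM in DEX 4 h and 42.4 ± 7.83 CPM in DEX 2 h (SD, n = 3 for these and the following means). WRKY40 averaged 31.7 ± 21.2 CPM in DEX 4 h and 45.3 ± 12.8 CPM in DEX 2 h, and WRKY33 72.8 ± 32.2 CPM in DEX 4 h and 81.1 ± 10.2 CPM in DEX 2 h. ZAT10 averaged 52.7 ± 21.7 CPM in DEX 4 h and 64.5 ± 2.74 CPM in DEX 2 h, and ZAT12 37.6 ± 7.62 CPM in DEX 4 h and 50.8 ± 3.75 CPM in DEX 2 h. None of these 5 differences was called. The SD of WRKY40, WRKY33, ZAT10 and ZAT12 was larger in DEX 4 h than in any other group.

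The spread within groups had a pattern by replicate number, described here after the values were seen. Replicate 1 was the lowest library in all 4 groups for WRKY40 and WRKY33, and in 3 of 4 groups for TCH4, ZAT10 and ZAT12. Replicate 3 was the highest in all 4 groups for WRKY40, ZAT10 and ZAT12, and in 3 of 4 for TCH4 and WRKY33. TCH2 and TCH3 did not share it: replicate 1 was lowest in 0 and 1 of the 4 groups. In log2 CPM, WRKY40 in replicate 1 lay 1.01 below its group mean in DEX 1 h, 0.45 below in DEX 2 h, 1.65 below in DEX 4 h and 0.93 below in control 1 h. Replicate 1 was lowest in all 4 groups for 2 of the 7 genes and for 1.99% of all tested loci, and replicate 3 highest in all 4 for 3 of the 7 genes and 2.44% of loci. Among 12 jasmonate wound genes, which include the JAZ repressors and the synthesis enzymes LOX3, LOX4, AOS and OPR3, replicate 1 was lowest in all 4 groups for 11. The same held for 7 of 17 early ERF and CBF factors. The effect of a term for the replicate number is given with the processing alternatives. The labels do not say whether a number marks a shared day or plate.

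**Figure D3:**
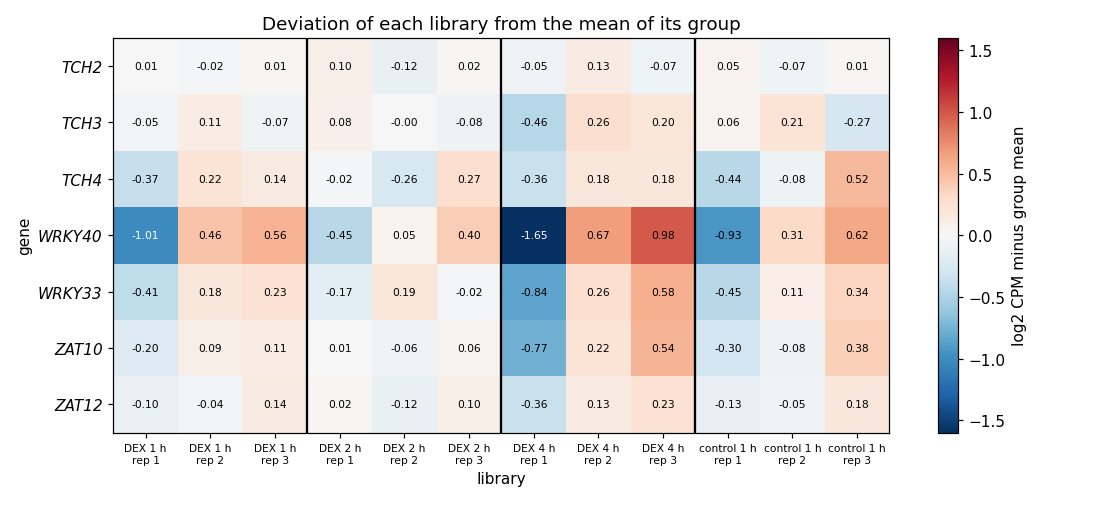
Deviation of log2 CPM from the mean of its own group (colour scale) for the 7 genes (rows) in the 12 libraries (columns, by group and replicate number). The replicate 1 columns are below the group mean for WRKY40 in all 4 groups, most of all in DEX 4 h at -1.65, while TCH2 shows almost no deviation in any library.

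Between the 7 genes, levels were set side by side as CPM per kilobase of exon. TCH3 was the most abundant in DEX 1 h (62.0 to 70.3 CPM per kb) and in control 1 h (46.7 to 65.3), above every library of the other 6 genes in the same group. In DEX 2 h ZAT12 (47.7 to 55.3 CPM per kb) and ZAT10 (47.3 to 51.5) overlapped each other and lay above every library of the other 5 genes. Next came WRKY33 (35.5 to 45.4), TCH3 (37.2 to 41.4) and WRKY40 (24.4 to 43.7), which overlapped. TCH4 (22.0 to 31.9) and TCH2 (22.4 to 26.1) lay below WRKY33 and TCH3 but overlapped WRKY40. In DEX 4 h TCH3 had the lowest mean of the 7, at 13.02 CPM per kb (9.26 to 15.2), and WRKY40 in replicate 1 alone was lower, at 5.86. TCH4 had the lowest mean in control 1 h, at 12.8 CPM per kb (9.09 to 17.7), below every TCH2 library there (19.0 to 20.6) but overlapping WRKY40 (8.75 to 25.5).

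The 7 genes did not vary as one group over the 12 libraries. The Pearson correlation of log2 CPM was 0.934 between WRKY40 and WRKY33, 0.916 between WRKY40 and ZAT10, 0.912 between WRKY33 and ZAT10 and 0.899 between ZAT10 and ZAT12. That of TCH3 with the other 6 lay between -0.18 and 0.34. These are descriptions over 12 libraries that share 4 groups and the replicate pattern above. Among the 17489 loci whose mean log2 CPM was 1 or more, the one most like TCH2 was AT1G11120 (r = 0.911). For TCH3 it was JAZ3 (0.977), for TCH4 AT5G08350, a GRAM domain protein (0.932), and for WRKY40 ERF13 (0.981). For WRKY33 it was JAZ6 (0.967), for ZAT10 AT1G19210 (0.966) and for ZAT12 AT4G33940, a RING/U-box protein (0.928). JAZ3, a jasmonate repressor, averaged 29.3 ± 1.39 CPM in DEX 4 h and 49.7 ± 2.34 CPM in control 1 h (SD, n = 3 each). It was picked because it follows TCH3 over these same libraries, so its fall is no separate result. The 5 loci most like the mean profile of the 7 genes were DIC2, a mitochondrial dicarboxylate carrier (r = 0.986), CAMBP25, a calmodulin-binding protein (0.979), AT1G19210 (0.940), AT5G41740 (0.934) and ERF105 (0.930). RefSeq gives AT1G19210 and ERF105 the same product name, integrase-type DNA-binding superfamily protein.

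Other genes of the same pathways were followed in lists that hold no member. Beside them, of all 19733 tested loci 992 were called higher and 906 lower at 1 h. At 2 h 3261 were higher and 3654 lower, and at 4 h 4876 were higher and 5044 lower. Of 15 calmodulins and calmodulin-like proteins, 1 was higher at 1 h, 5 were higher and 3 lower at 2 h, and 5 were higher and 4 lower at 4 h, with list medians of 0.086, 0.24 and 0.048 on the log2 scale. CAM7, a calmodulin, averaged 419 ± 29.4 CPM in DEX 4 h and 288 ± 5.16 CPM in control 1 h (SD, n = 3 each). It rose by 0.54 on the log2 scale (edgeR adjusted p = 0.000304). The CAM genes encode near-identical proteins, and how reads were split among these genes was not tested. CML43 fell by 1.11 (edgeR adjusted p = 9.24e-05), with 3.55 ± 0.722 CPM in DEX 4 h and 7.69 ± 0.641 CPM in control 1 h. Of 9 tested xyloglucan endotransglucosylase/hydrolases, the family of TCH4, 1 was higher at 1 h, 4 were higher and 1 lower at 2 h, and 5 were higher and 2 lower at 4 h, with medians of 0.18, 0.16 and 0.31. XTH15 averaged 227 ± 16.0 CPM in DEX 4 h and 120.3 ± 14.8 CPM in control 1 h and rose by 0.91 (edgeR adjusted p = 1.49e-06).

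Of 14 other stress WRKY factors, 4 were higher at 1 h, 1 was higher and 3 lower at 2 h, and 3 were higher and 4 lower at 4 h, with medians of 0.40, 0.030 and -0.10. WRKY28 rose at 1 h at a low level, with 2.68 ± 0.667 CPM in DEX 1 h and 0.676 ± 0.105 CPM in control 1 h (log2 1.98, edgeR adjusted p = 0.000268). WRKY60, known as a partner of WRKY40, rose to 6.48 ± 1.45 CPM in DEX 4 h, against 2.19 ± 0.225 CPM in control 1 h (log2 1.57, edgeR adjusted p = 3.34e-05). WRKY29, known from immune signalling, fell by 2.02 at 4 h (edgeR adjusted p = 0.000461) and WRKY48 by 1.79 (edgeR adjusted p = 2.44e-06). At 1 h WRKY48 was called higher than the control (log2 0.66, edgeR adjusted p = 0.0115), a call lost under 3 of 14 alternatives. Of 8 tested ZAT-type zinc finger factors, edgeR called 2 at 2 h and 2 at 4 h, all higher. DESeq2 also called 1 gene of this list lower at 4 h. AZF3 rose by 0.94 at 4 h (edgeR adjusted p = 6.58e-05), with 10.0 ± 0.823 CPM in DEX 4 h and 5.23 ± 0.911 CPM in control 1 h. Of 17 early ERF and CBF factors, 3 were higher and 1 lower at 2 h and 2 lower at 4 h, with medians of 0.18, 0.54 and 0.16 at 1, 2 and 4 h. ERF4, a repressor, fell by 0.77 at 4 h (edgeR adjusted p = 6.37e-05). At 1 h neither list had a call in either direction by edgeR, where 2 ZAT-type genes and 1 ERF gene had an unadjusted p under 0.05 and DESeq2 called 0 and 1.

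In the lists of CAMTA factors, mechanosensing genes and MAP kinases, every edgeR call was lower than the control, while DESeq2 also called 1 MAP kinase gene higher at 2 h and 1 at 4 h. Of 6 CAMTA factors, 3 were called at 2 h and 4 at 4 h, beside 35% and 50.3% of all tested loci called in either direction at these times. Of the 19733 loci, 3654 and 5044 were called lower. CAMTA3, the best known of them in cold and wound responses, averaged 21.0 ± 2.79 CPM in DEX 4 h and 41.3 ± 2.09 CPM in control 1 h and fell by 0.97 (edgeR adjusted p = 3.68e-06). CAMTA2 fell by 0.62 (edgeR adjusted p = 6.03e-06). Of 8 tested genes of mechanosensing and calcium entry, 2, 4 and 5 were called at 1, 2 and 4 h. MSL9, a mechanosensitive channel, fell by 0.49, 0.98 and 1.08 at 1, 2 and 4 h, with 130.5 ± 7.76 CPM in DEX 4 h and 276 ± 5.42 CPM in control 1 h (edgeR adjusted p = 3.35e-08 at 4 h). FER, the receptor kinase FERONIA, fell by 0.65 at 4 h (edgeR adjusted p = 6.86e-06). Of 8 MAP kinase module genes, 2 were called at 2 h and 3 at 4 h, and the kinase kinase gene MKK2 fell by 0.37 at 4 h (edgeR adjusted p = 0.00185). Of 16 other rapid wound and touch genes, edgeR called 1 higher at 1 h and 3 lower at 4 h. PBP1, a calcium-binding protein, was among those lower at 4 h (log2 -0.71, edgeR adjusted p = 0.00654). DESeq2 also called 2 genes of this list higher at 2 h. Of 12 jasmonate wound genes, OPR3 alone was called, lower at 2 h and at 4 h (log2 -0.41 and -0.55, edgeR adjusted p = 0.00346 and 0.000185). At 1 h edgeR called 0 of the CAMTA, MAP kinase and jasmonate genes, of which 1, 1 and 0 had an unadjusted p under 0.05, and DESeq2 called 0 of them. Apart from WRKY48 at 1 h, the changes given for genes named in these lists were called under every alternative tried. The counts of calls per list were less stable: over the 10 lists, 6 comparisons and 14 alternatives, 174 of 840 counts moved by more than 1.5 times.

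**Figure D4:**
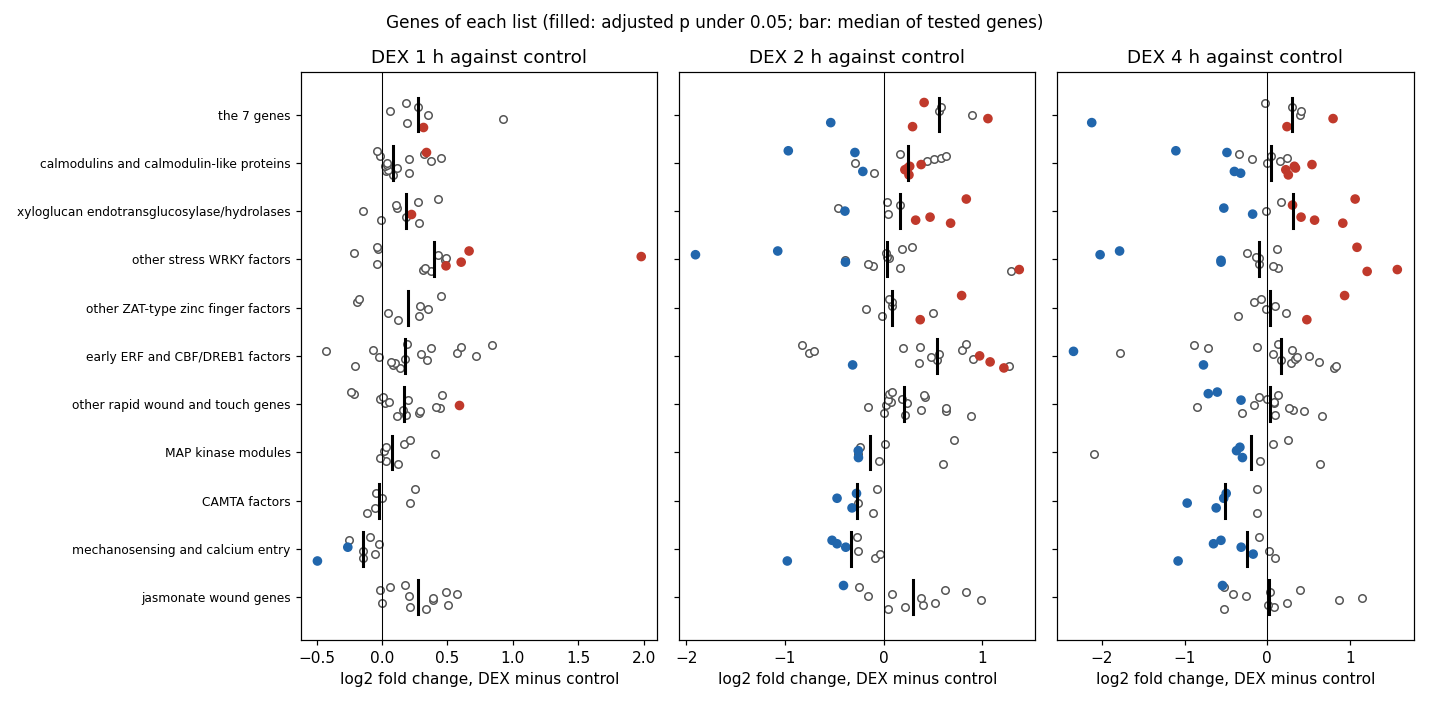
Log2 fold change, DEX minus control (horizontal axes), of each tested gene of the members and the pathway lists (rows) at DEX 1, 2 and 4 h (panels). Filled points have an edgeR adjusted p under 0.05 and bars mark list medians. The CAMTA and mechanosensing lists have filled points only below 0, and the calmodulin and XTH lists have them on both sides at 4 h.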

How the data were processed

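Expected counts per locus were deposited by the authors, 1 file per library; about 82.2% to 83.3% of the values were whole numbers, and the reason for the fractions is not given in the sources used here. Per the labels' protocols, the RNeasy kit was used for RNA and the TruSeq Stranded mRNA kit for sequencing libraries, and the submitters' processing notes name CASAVA, GSNAP, HTSeq and edgeR, without versions, and build TAIR10. The strand setting of the counting is not given in the sources used here, so reads of overlapping genes on opposite strands may have been mixed.

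Counts were rounded and filtered with filterByExpr (minimum count 10, minimum total 15), which kept 19733 loci holding 99.95% of counts. They were scaled with TMM factors and tested with edgeR 4.0.16 (glmQLFit with robust estimation, glmQLFTest; R 4.3.3, limma 3.58.1) in 1 fit of all 12 libraries with group as the only term. The SE is the absolute log2 fold change divided by the square root of F. Calls needed a Benjamini-Hochberg adjusted p under 0.05 over all tested loci. Alternatives were RLE factors, library totals, no filter, DESeq2 1.42.0, 2-group fits, a replicate block, cutting counts down to whole numbers, a threshold of 0.01 and leaving out each library. The script was tested on simulated data. The p-values come from a model of both counting error and the spread between biological repeats, each a pool of root tips. Counting error weighs more where counts are low, as for WRKY28 at 0.676 CPM in control 1 h.

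Symbols came from RefSeq, which matched 28009 of 28775 loci, and promoters from its TAIR10.1 sequence, read from the genome, for all 7 genes. From each pathway list, the rule named up to 2 higher and 2 lower called genes with the largest change at each time against the control. Of these 54 results, 33 were called under all alternatives. Apart from WRKY48 at 1 h, the results printed are a choice from those 33. A rule also named the locus most correlated with each gene and the 5 most correlated with their mean profile. The members, lists and rules were chosen with earlier results of these data known.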

Additional observations from a re-analysis of the deposited data

Results flagged for a closer look

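TCH3 was the only one of the 7 genes whose level differed between DEX times by the edgeR quasi-likelihood test, and for that reason its 3 differences are listed here. The log2 fold change was -0.73 for DEX 2 h against DEX 1 h (edgeR adjusted p = 0.00515), with means of 100.1 ± 5.37 CPM in DEX 2 h and 166 ± 11.7 CPM in DEX 1 h (SD, n = 3 each). It was -1.59 for DEX 4 h against DEX 2 h (edgeR adjusted p = 0.000425) and -2.32 for DEX 4 h against DEX 1 h (edgeR adjusted p = 1.79e-06), with a mean of 33.2 ± 8.34 CPM in DEX 4 h. In each comparison all 3 libraries of the later time lay below all 3 of the earlier one. Under the alternatives these values ranged from -0.81 to -0.67, from -1.72 to -1.40 and from -2.44 to -2.12, and each was called under every one of them.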

How the results depend on the processing

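Of 588 member values recomputed under the alternatives, 528 kept their direction and side of the threshold, 26 lost a call, 12 gained one and 22 changed sign; the calls lost or gained by a single library are given with each gene above. At an adjusted p under 0.01 by edgeR, the members called against the control numbered 0 at 1 h, 1 at 2 h and 1 at 4 h (2 members had an unadjusted p under 0.05 at 1 h, and DESeq2 called 2 at 0.05). The loci called at 0.01 fell to 912 at 1 h, 4082 at 2 h, 3395 for DEX 2 h against 1 h and 348 for DEX 4 h against 2 h, against 1898, 6915, 6168 and 1448 at 0.05. DESeq2 called 2 members for DEX 4 h against 2 h, and fits of 2 groups called 1234 loci at 1 h and 2 members for DEX 2 h against 1 h. With single libraries left out, the members called ranged from 0 to 2 at 1 h, 1 to 4 at 2 h, 1 to 5 at 4 h, 1 to 1 for DEX 2 h against 1 h, 1 to 2 for DEX 4 h against 2 h and 1 to 1 for DEX 4 h against 1 h. The loci called then ranged, over those 6 comparisons in the same order, from 1194 to 2303, 5130 to 6161, 8478 to 9328, 4129 to 7490, 395 to 1439 and 8021 to 10094, with the lowest, 1194 and 395, when control replicate 2 or DEX 2 h replicate 1 was missing. With library totals, the calls were split 2033 higher and 4393 lower for DEX 2 h against 1 h and 3653 higher and 6039 lower for DEX 4 h against 1 h, against 2949 and 3219, and 4759 and 4830, with TMM factors.

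No value that changed sign had been called, and the cause was not tested. These are log2 fold changes with single libraries left out. Against the control, WRKY33 at 1 h ranged from -0.13 (without control replicate 1) to 0.24, and was also below 0 without DEX 1 h replicate 2 (-0.020) or 3 (-0.044). WRKY40 at 4 h ranged from -0.027 (without DEX 4 h replicate 3) to 0.85, and ZAT12 at 4 h from -0.13 to 0.13, being above 0 without DEX 4 h replicate 1 (0.13) or control replicate 3 (0.074). In DEX 2 h against 1 h, TCH2 ranged from -0.072 to 0.037 (without DEX 2 h replicate 2), and TCH4 from -0.026 (without DEX 1 h replicate 1) to 0.26, and was -0.010 without DEX 2 h replicate 3. In DEX 4 h against 2 h, WRKY33 ranged from -0.45 to 0.16 and ZAT10 from -0.57 to 0.00056, both highest without DEX 4 h replicate 1. In DEX 4 h against 1 h, TCH4 ranged from -0.29 to 0.030 (without DEX 4 h replicate 1), WRKY40 from -0.38 to 0.50 and ZAT10 from -0.26 to 0.31. Of these, WRKY40 was below 0 without DEX 1 h replicate 1 (-0.31), DEX 4 h replicate 2 (-0.13) or 3 (-0.38), and with library totals (-0.024). ZAT10 was below 0 without the same libraries (-0.078, -0.049 and -0.26) and with library totals (-0.060).

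The replicate numbers share no stated day or plate. They were not treated as pairs, because not every correlation of deviations within a number passed 0.1. These lay between -0.108 and 0.149 over 18 pairs, with 3 above 0.1. Between different numbers they lay between -0.155 and 0.142 over 36 pairs, with 1 above 0.1. Of the 12 libraries, 8 correlated best with their own number. An effect of the number on single genes was not tested by this rule. For WRKY40, replicate 1 was lowest and replicate 3 highest in all 4 groups. Replicate 1 was also lowest in all 4 groups for 11 of 12 jasmonate wound genes. With a replicate block, 2, 6 and 3 members were called at 1, 2 and 4 h against the control, and 1, 2 and 1 for DEX 2 h against 1 h, DEX 4 h against 2 h and DEX 4 h against 1 h. Over all 19733 loci the block called 2063, 7043, 9993, 6352, 1669 and 9597 in these 6 comparisons, in that order. The block gave calls to TCH4 at 1 h (log2 0.94, edgeR adjusted p = 0.00482), WRKY40 at 2 h (1.00, edgeR adjusted p = 0.0405), WRKY33 at 2 h (0.61, edgeR adjusted p = 0.0368) and ZAT12 for DEX 4 h against 2 h (edgeR adjusted p = 0.0105). The block turned the sign of DEX 4 h against 1 h for WRKY40 (-0.044) and ZAT10 (-0.031). Every member had at least 105 counts in each library.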
